A study of Canis lupus familiaris with 30 samples.

Results

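The genes described here are 100 of the 18582 genes in the table, the ones whose level differed most between dogs in cancer-associated stroma (CAS) relative to normal stroma. They were chosen by their spread. Levels were taken as log2(CPM + 1), where CPM is the estimated count of a gene divided by the total of its library and multiplied by 1000000. A gene was a candidate if its median CPM was between 10 and 500 in both the 15 CAS libraries and 13 normal stroma libraries, if these medians were within 4-fold of each other, and if its levels in the 2 stromas of a dog correlated with Pearson's r under 0.8. Of the 18582 genes, 6461 had both medians in the range, 6378 of these met the limit on the fold and 6317 met the limit on r. The 100 candidates with the largest SD between dogs in CAS minus SD between dogs in normal stroma are the members. The last member had an SD difference of 0.456069 (SD 1.05 in CAS and 0.59 in normal stroma) and the first gene outside had 0.455944 (0.83 and 0.37), so the boundary of the set is not a gap in the data.

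CAS is the non-tumour tissue around carcinoma cells, made up of fibroblasts, immune cells, vessels and extracellular matrix, and it takes part in the growth and spread of many tumours. Its make-up is known to vary between patients, because the number of immune cells, the density of collagen and the amount of vessels differ from tumour to tumour. Fixation in formalin fragments and modifies RNA, which limits what can be measured in such tissue.

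The study compared CAS with matched normal stroma, which lies next to unaltered mammary glands, in 15 female dogs with spontaneous, untreated simple mammary carcinoma (mCA). Both stromas were cut from the same formalin-fixed, paraffin-embedded (FFPE) slides by laser-capture microdissection, which gives 1 library of each stroma per dog from a small amount of fixed RNA. The dogs were between 4 and 14 years old and the samples were between 3 and 27 months old at analysis. Of the dogs, 6 are labelled neutered, and for the other 9 the labels do not state it. The carcinoma is labelled tubular in 8 dogs and as another simple subtype in 7. The paper selected cases with areas that showed little or no evident inflammation. Dogs are named here by the number in their labels. The dogs are separate animals, so p-values of the tests within 1 stroma measure the spread between dogs. Each dog gave 1 library per stroma, and the error of repeated dissection is unknown. The main comparison of CAS with normal stroma had no dog term, so its p-values ignore that the libraries of a dog are paired.

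Total estimated counts were between 1361951 and 5572761 in the 15 CAS libraries and between 617177 and 3932370 in 13 normal stroma libraries. The normal stroma libraries of dogs 128 and 136 hold 29284 and 32528 counts, and the selection left them out. A median member had 2 counts in those libraries, compared to 112 in CAS and 71 in the other normal stroma libraries. In CAS, 94.8% of the members' values rested on at least 10 counts, compared to 96.2% in normal stroma. The single most abundant gene took between 13.8% and 38.7% of a CAS library, a share that enters every CPM through the total.

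The files list genes by Ensembl ID without names, and 0 of the IDs matched the dog gene table used for names. The members are therefore described by ID for the first 4 and a further 2 and by their place in the order of the selection for the others. For the same reason markers of fibroblasts, immune cells, epithelium, adipose tissue or muscle could not be set beside the members, and the labelled tissue was not checked against its markers. Each library holds RNA of many cells, so fewer cells of a type and less RNA per cell cannot be told apart.

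The members had an SD between dogs of 0.92 to 3.38 in CAS (median 1.32) and of 0.31 to 2.02 in normal stroma (median 0.69), both on the log2(CPM + 1) scale. The other 6217 candidates had a median SD of 0.60 in CAS and 0.69 in normal stroma. Hence the spread of the members in normal stroma was that of an ordinary candidate gene, and it was their CAS spread that was large. These values chose the members and are given as a description. The members were of moderate abundance, with a median CPM of 10.2 to 242 in CAS and of 10.2 to 345 in normal stroma. Of the 100 members, 42 had a higher mean log2(CPM + 1) in CAS and 58 a lower one. The counts were reversed in the fitted comparison of all 30 libraries given further below, with 58 members higher in CAS and 42 lower.

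**Figure D1:**
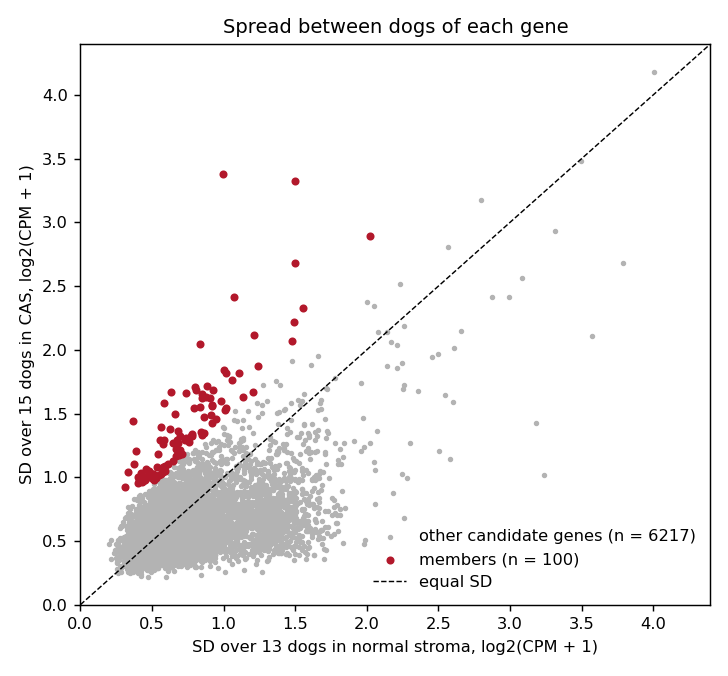
SD of log2(CPM + 1) over 13 dogs in normal stroma (x axis) and over 15 dogs in CAS (y axis) for each of the 6317 candidate genes, with the 100 members in red, the other 6217 in grey and a dashed line where both are equal. The members lie along the upper edge of the cloud because they were chosen by the distance from this line, and most sit between 1 and 2 in CAS at an SD in normal stroma under 1.

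In units of CPM, the dog with the highest CAS level had a median of 30.6 times the level of the lowest dog, over the 82 members with no CAS dog at 0, with a range from 8.12 to 805 times. In normal stroma the same ratio had a median of 5.46 over 98 members. At least 1 CAS dog lay above the range of the 13 normal stroma libraries for 81 members, at least 1 lay below it for 90, and both held for 71. Among the other candidates these shares were 56.1%, 31.8% and 13.7%. The members were chosen for a wider CAS spread, so their counts are a description. For 18 members at least 1 CAS library held 0 counts, and for 17 of these it was exactly 1 library. The exception was the fifth member, which was at 0 in 3 CAS dogs, dog 130 among them, and at 0 in 1 dog in normal stroma. Among the 17, dog 130, with the smallest CAS library, was at 0 for members 7, 15, 22, 25, 26, 29, 34 and 88. Dog 136, with the next smallest, was at 0 for members 24, 41 and 83. The dog at 0 was dog 128 for members 27 and 46, dog 126 for 2 and 4, dog 132 for 1 and dog 123 for 20. In normal stroma, 2 members had a library at 0.

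The gene with the largest SD difference was ENSCAFG00000031922, with an SD of 3.38 in CAS and 0.99 in normal stroma. In CAS its level was 1182 CPM in dog 123, 1008 in dog 130, 340 in dog 127, 305 in dog 138, 195 in dog 121, 174 in dog 137 and 78.7 in dog 128. In the other CAS dogs it was 14.6 CPM in dog 136, 10.7 in dog 134, 10.7 in dog 139, 3.66 in dog 131, 3.54 in dog 109, 2.40 in dog 135, 1.20 in dog 126 and 0 in dog 132. No CAS dog lay between 14.6 and 78.7 CPM, where 11 of the 13 normal stroma libraries lay. The 0 of dog 132 is among 3663608 counts, which allows a level of up to 0.819 CPM (3 counts), so the level in dog 123 was at least 1444-fold higher. Such limits cover counting error only. In normal stroma the gene ranged from 9.97 CPM in dog 127 to 147 CPM in dog 123, with a median of 41.5. In CAS, 6 dogs lay above that range and 5 below it.

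ENSCAFG00000014473, the second member, had an SD of 3.33 in CAS and 1.5 in normal stroma. Its CAS level was 1515 CPM in dog 123, 794 in dog 130 and 385 in dog 138. It was 42.7 CPM in dog 121, 35.8 in dog 128, 32.2 in dog 127, 30.7 in dog 137 and 11.9 in dog 136. It was lowest in dogs 109, 139, 132, 134, 135 and 131, at 4.3, 3.8, 2.46, 2.01, 1.06 and 0.333 CPM, and at 0 in dog 126. Hence 3 dogs stood far above the others, and the same 3 dogs were the ones above the normal stroma range of 1.30 to 63.1 CPM. In dog 126 a count of 0 allows up to 1.20 CPM, so dog 123 was at least 1264-fold higher. The low values of this gene rest on few counts, with 1 count in dog 131, 4 in dog 135 and 1 in the normal stroma of dog 132.

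The third member, ENSCAFG00000006248, had a more even distribution, with an SD of 2.42 in CAS and 1.08 in normal stroma. Its lowest CAS level was 0.819 CPM in dog 132, a value of 3 counts, the median was 72.6 and the highest was 659 CPM in dog 123. In normal stroma it ran from 4.98 to 77.6 CPM with a median of 20.5. In 10 of 13 dogs CAS was above its matched normal stroma, and 7 CAS dogs were above the whole normal stroma range while dog 132 alone was below it.

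The fourth, ENSCAFG00000008711, showed the opposite balance, with an SD of 2.04 in CAS and 0.84 in normal stroma. Its CAS level was 0 in dog 126, 11.6 CPM at the median and 195 CPM in dog 123, compared to 13.4 to 89.9 CPM with a median of 32.5 in normal stroma. Of the 15 CAS dogs, 8 lay below the normal stroma range and dog 123 alone lay above it.

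**Figure D2:**
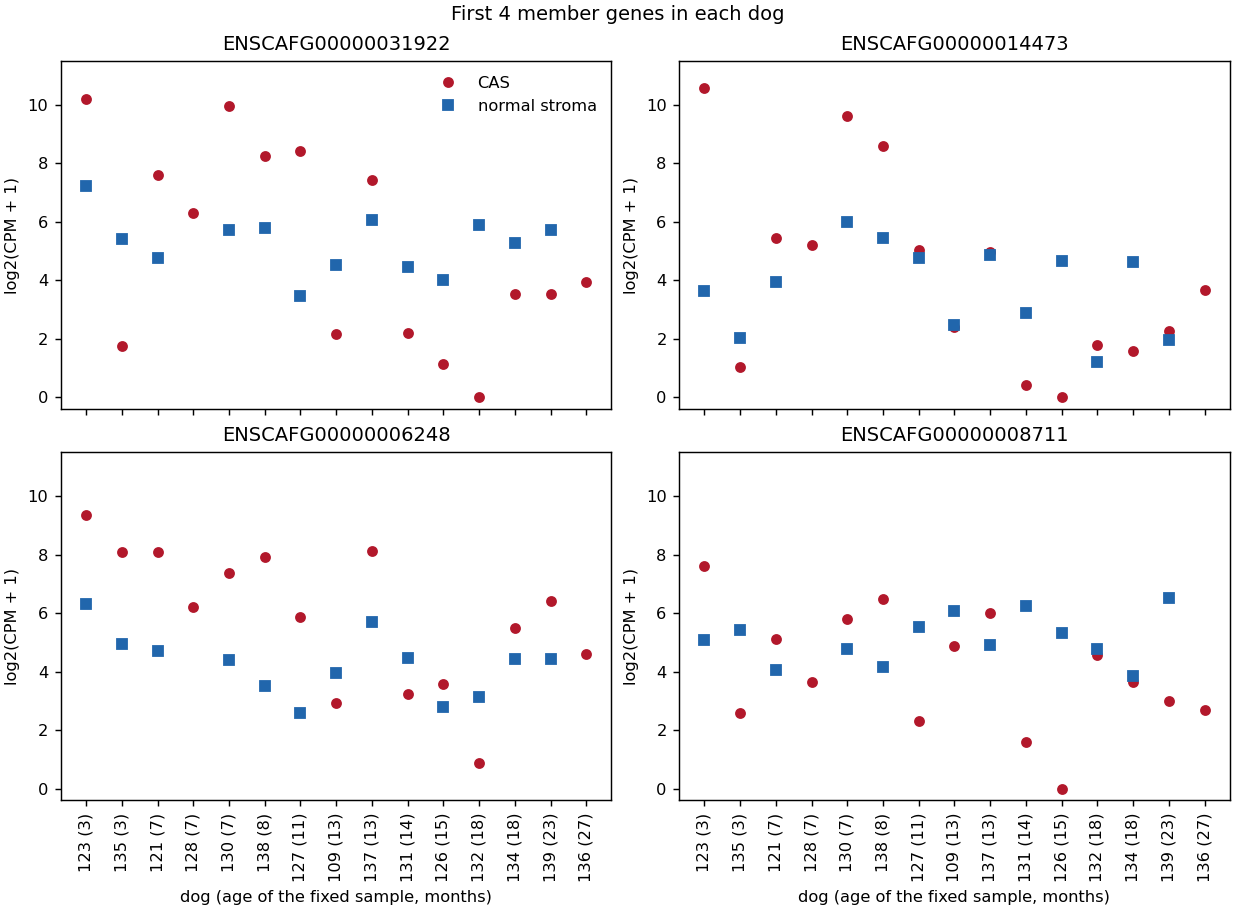
Level of the first 4 members, in log2(CPM + 1), in the CAS (red circles) and normal stroma (blue squares) of each dog, with dogs placed from the youngest fixed sample on the left to the oldest on the right and the age in months in brackets. Each point is 1 library, the 2 small normal stroma libraries are left out, and CAS spans more of the axis than normal stroma in all 4 panels, with dog 123 the highest CAS dog in each.

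The following members differed in how their spread arose. The sixth member ranged from 3.46 to 153 CPM in CAS and only from 14.3 to 36.8 CPM in normal stroma. It was below the normal stroma range in 8 CAS dogs and above it in 2, and lower than its matched normal stroma in 12 of 13. The eighth member ran from 8.81 to 278 CPM in CAS and from 13.0 to 47.7 CPM in normal stroma, and 9 CAS dogs lay above that range. The ninth member ran from 1.02 to 73.8 CPM in CAS and from 38.1 to 190 CPM in normal stroma. No CAS dog was above the normal stroma range for the ninth member, and 7 were below it. The eleventh member ran from 1.55 to 388 CPM in CAS, with 10 dogs above the normal stroma range of 4.38 to 73.3 CPM.

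A single dog made the seventh member one of the set. This gene had 0 counts in the CAS of dog 130, which allows up to 2.20 CPM in a library of 1361951 counts, and 30.8 to 145 CPM in the other 14 dogs. Its SD in CAS was 1.67 over all dogs and 0.61 without dog 130, compared to 0.63 in normal stroma. Over all members, the SD in CAS stayed above that in normal stroma for 95 of 100 when the CAS dog farthest from the median of that gene was left out, and 32 of 100 still had an SD difference at or past the lowest of the set. The farthest dog was a low one for 66 members and a high one for 34. Dropping the most distant value lowers any SD, so these counts describe how much of the spread rested on 1 library and are no test.

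Extreme levels were spread over several dogs. Dog 123 had the highest CAS level of 23 members and dog 121 of 14. The lowest level was in dog 130 for 18 members, in dog 132 for 12, in dogs 126 and 131 for 11 each, and in dog 136 for 10. Dog 139 was lowest for none. The same dogs were often extreme for other genes, since among the other candidates 31.7% were highest in dog 123 and 19.7% in dog 121, and 22.9% were lowest in dog 131 and 14.2% in dog 136. Dog 130 was lowest for 18 of the 100 members and for 11.2% of the other candidates. Its CAS library had the smallest total, and that of dog 136 the next smallest, with 1848241 counts. The library of dog 121 had the largest total. The part of library size in these counts was not tested.

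**Figure D3:**
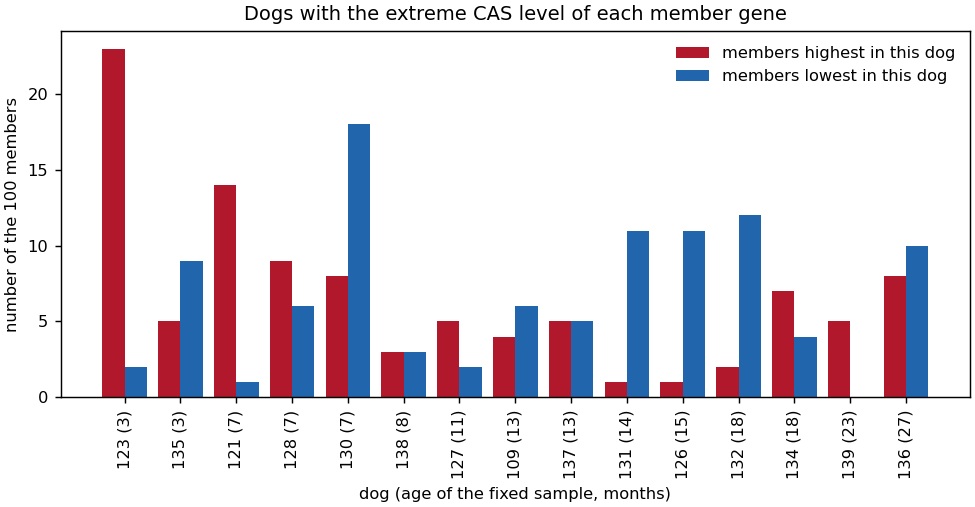
Number of the 100 members (y axis) that had their highest (red) or lowest (blue) CAS level in each of the 15 dogs, ordered by the age of the fixed sample with months in brackets. Dog 123 was highest for 23 members and dog 130 lowest for 18, and 9 or fewer members were highest in any dog other than 123 and 121.

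The make-up of the set moved with how levels and spread were computed. Of the 100 members, 59 were again among the first 100 when every library used in the selection was thinned at random to 617177 counts, 70 with TMM scaling of the libraries in place of totals, and 32 with the median absolute deviation, which gives little weight to single dogs. With CAS limited to the 13 dogs used for normal stroma, 73 of the 100 were again among the first 100. The CAS dog farthest from the median was dog 128 for 12 members and dog 136 for 11. For the 100 members themselves, the SD was higher in CAS for all 100 after thinning and with TMM scaling. The median absolute deviation was higher in CAS for 87. These counts re-score the values by which the members were chosen and are no test.

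For most members the levels in the 2 stromas of a dog were weakly related. Pearson's r between the stromas over 13 dogs ran from -0.57 to 0.70 with a median of 0.21, compared to a median of 0.28 over the other candidates. It was above 0 for 72 members and above 0.5 for 19. The selection capped r at 0.8, so these values are a description.

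Some members varied together across the CAS of the 15 dogs. ENSCAFG00000031922 and ENSCAFG00000014473 had an r of 0.92 over 15 CAS dogs and of -0.08 over 13 normal stroma dogs. ENSCAFG00000014473 and ENSCAFG00000008711 had 0.80 in CAS and -0.51 in normal stroma. By contrast, ENSCAFG00000031922 and ENSCAFG00000006248 had 0.77 in CAS and 0.70 in normal stroma. The other pairs among the first 4 members had 0.64, 0.67 and 0.51 in CAS, compared to -0.26, -0.04 and -0.05 in normal stroma. The number of members with r over 0.7 to ENSCAFG00000031922 in CAS was 23, to ENSCAFG00000014473 it was 20, to ENSCAFG00000006248 it was 14 and to ENSCAFG00000008711 it was 4. All of these points share their 15 libraries, with their depth and composition. Without dogs 123 and 130, which had the highest levels of the first pair and were left out after seeing the data, the r of ENSCAFG00000031922 was 0.89 with ENSCAFG00000014473 and 0.72 with ENSCAFG00000006248, and that of ENSCAFG00000014473 with ENSCAFG00000008711 was 0.70. The other pairs then had 0.48, 0.58 and 0.36, in the order given above.

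The first principal axis held 36.1% of the members' variance in CAS and 23.7% in normal stroma, compared to 34.9% and 29.4% for the other candidates. In CAS limited to the 13 dogs used for normal stroma, it held 41% for the members and 38.6% for the other candidates. Levels were not scaled, so genes with a wide spread weigh more in this axis. Pairs with an r above 0.7 or below -0.7 made up 6.24% of the 4950 pairs of members in CAS and 1.90% in normal stroma, while the other candidates had 7.09% and 3.95%. Over the same 13 dogs as in normal stroma, the share in CAS was 9.07% among members and 10.4% among the other candidates. The members were thus no more often in such pairs than the other candidates.

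The selection used no label of the dogs, and the members' CAS levels were compared with the labels. It did choose the members for a wide spread of these same CAS levels. More members than other genes can reach a low unadjusted p for that reason, so the counts of members below are a description. Each comparison was fitted over all genes that passed a filter on low counts, all 100 members passed it, and p-values were adjusted over all genes tested. Unless DESeq2 is named, all counts in the following paragraphs come from quasi-likelihood tests in edgeR, adjusted by the method of Benjamini and Hochberg. Because the members share the same 15 libraries and covary, a count of members is not a count of independent observations.

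Of the 4 labels, the age of the fixed sample had the most members at an unadjusted p below 0.05, but no single member passed the FDR threshold. At an FDR below 0.05, edgeR called 0 members and 0% of the 12838 genes tested, and the smallest adjusted p of a member was 0.101. At an unadjusted p below 0.05 there were 32 of 100 members, compared to 8.77% of all genes tested. Of these 32, 26 had a negative slope per month (4.99% of all genes) and 6 a positive one (3.78% of all genes). Over all members the slope was negative for 62 of 100, compared to 54.3% of all genes tested. The median size of the slope, which grows with the spread used for selection, was 0.06 log2 per month for the members and 0.02 for all genes. The 100 candidates next in the order of the selection had 23 genes at an unadjusted p below 0.05. The count of 32 was between 25 and 35 when each dog was left out in turn. It was 36 with the library total as a covariate and 34 over the 13 dogs used for normal stroma, both settings chosen after seeing the data.

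The steepest negative slope belonged to ENSCAFG00000014473, which was -0.32 ± 0.09 log2 per month (SE, 15 dogs; adjusted p = 0.301). ENSCAFG00000031922 had a slope of -0.28 ± 0.09 (adjusted p = 0.332), ENSCAFG00000006248 one of -0.15 ± 0.05 (adjusted p = 0.375) and ENSCAFG00000008711 one of -0.14 ± 0.06 (adjusted p = 0.4997). None of these passed the threshold. Dogs 135 and 123 shared the youngest sample age of 3 months. For ENSCAFG00000031922 dog 135 had 2.40 CPM where dog 123 had 1182, and for ENSCAFG00000006248 it had 270 CPM where dog 123 had 659, with both dogs above the normal stroma range. The steepest positive slope was that of the eleventh member, at 0.13 ± 0.05 log2 per month, whose highest CAS level was in dog 136, the dog with the oldest sample. DESeq2 called 3 members, which were the tenth, the sixteenth and the forty-first, with slopes of -0.20, -0.19 and -0.22 log2 per month, and 39 of 12783 genes in all (0.305%). It gave no adjusted p for 5 members and had 33 members at an unadjusted p below 0.05 (10.2% of genes).

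**Figure D4:**
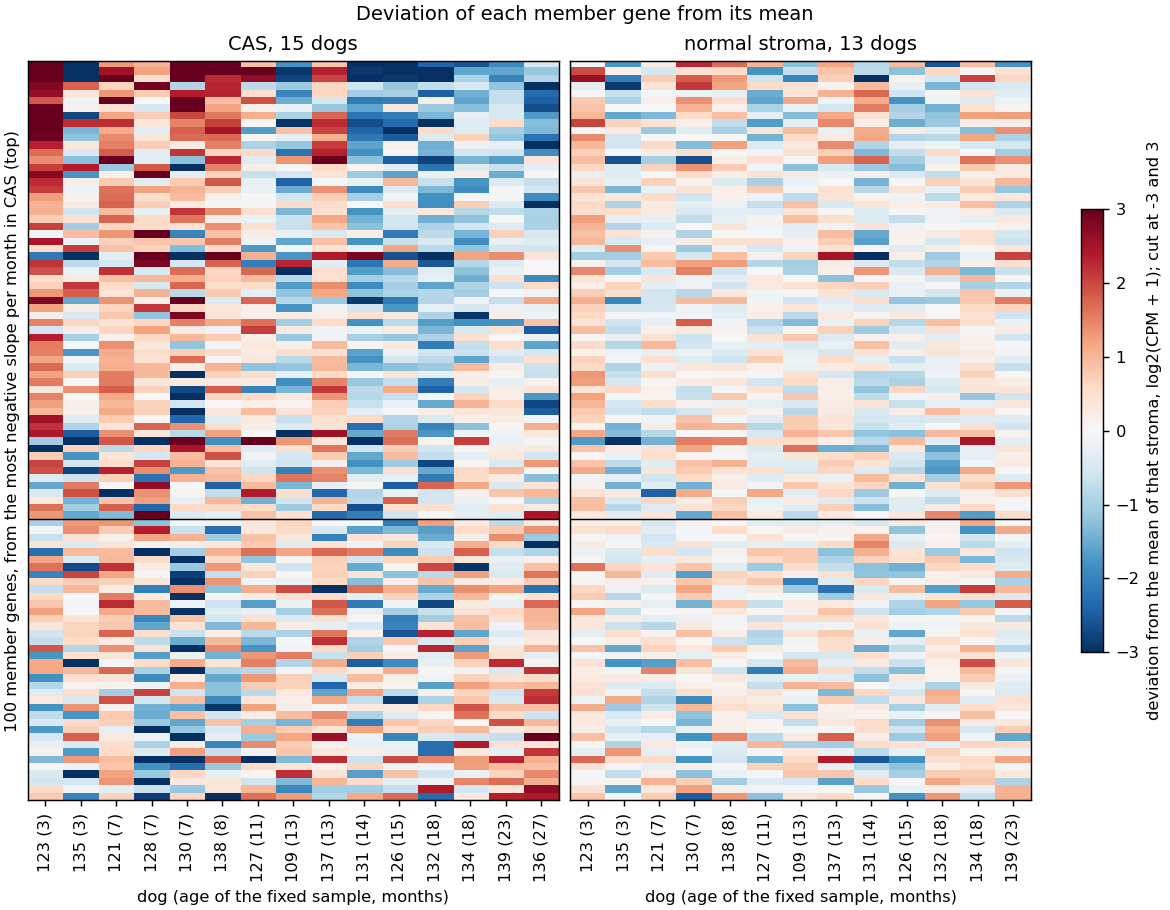
Deviation of log2(CPM + 1) from the mean of the gene within that stroma (blue below, red above, cut at 3 in either direction), for the 100 members in rows and the dogs in columns, with dogs in order of the age of the fixed sample (months in brackets) and genes from the most negative slope per month in CAS at the top to the most positive at the bottom. The black line parts the 62 members with a negative slope from the 38 with a positive one. The order of rows was set by the CAS values, so the gradient in the CAS panel is in part built in, and the normal stroma panel shows paler colours.

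In normal stroma the median size of the slope with sample age was 0.02 log2 per month, both for the members and for all genes tested. There, 0 members passed an FDR below 0.05 (0% of the 11603 genes tested; DESeq2 called 0), and 7 had an unadjusted p below 0.05, all with a positive slope, compared to 2.85% of all genes and to 6 members in DESeq2. Of the 32 members at an unadjusted p below 0.05 in CAS, 20 had a slope of the same sign in normal stroma, all 32 had a slope of smaller size there, and 1, the sixty-first member, had an unadjusted p below 0.05 there with the opposite sign, at -0.06 log2 per month in CAS and 0.04 in normal stroma. The median size of the slope of these 32 was 0.11 log2 per month in CAS and 0.02 in normal stroma, but the members were selected for a wider spread in CAS than in normal stroma and these 32 on their CAS slopes, so smaller slopes in normal stroma are in part built in. The difference of the slopes was tested as an interaction with the dog as a block, a test added after seeing the data. The selection used the spread of both stromas, so more members than other genes can pass this test for that reason, and nothing is read from its count. It called 0 members and 0% of 13976 genes at an FDR below 0.05, with 20 members at an unadjusted p below 0.05, all with the more negative slope in CAS, compared to 3.40% of all genes. DESeq2 called 1 member, the fifty-first, and 5 of 9640 genes in all (0.0519%), and had 27 members at an unadjusted p below 0.05 (4.82% of genes).

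The size of the library was examined in the same way. Against the CAS library total, 0 members and 0% of genes passed an FDR below 0.05, and 11 members had an unadjusted p below 0.05, compared to 7.47% of all genes. DESeq2 was not run for the library total.

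For the other labels no more than 7 members had an unadjusted p below 0.05 in edgeR with all dogs. The percentages of all genes in this paragraph are also those of edgeR with all dogs. The counts from DESeq2 or without a dog have no such share beside them, so no excess is read from them. Between the 6 dogs labelled neutered and the other 9, the CAS of 0 members differed at an FDR below 0.05 (0% of 11634 genes; DESeq2 0), and 5 members had an unadjusted p below 0.05, compared to 4.79% of all genes and to 11 members in DESeq2. That count of 5 was unstable. It was 13 without dog 137, 11 without dog 130, 8 without dog 109, 134 or 135, and 3 without dog 136. Between the 8 dogs with a tubular carcinoma and the 7 others, 0 members differed in CAS at an FDR below 0.05 (0% of 11322 genes; DESeq2 0), and 7 had an unadjusted p below 0.05, compared to 3.28% of all genes and to 8 members in DESeq2. Without dog 138 the 7 became 11. By age of the dog, 0 members passed an FDR below 0.05 in CAS (0% of 12387 genes; DESeq2 0), and 7 had an unadjusted p below 0.05, compared to 2.02% of all genes and to 7 members in DESeq2. This count was 11 without dog 121 and 4 without dog 130. For ENSCAFG00000014473 the slope with age of the dog was 0.52 ± 0.22 log2 per year (SE, 15 dogs; adjusted p = 0.9997).

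**Figure D5:**
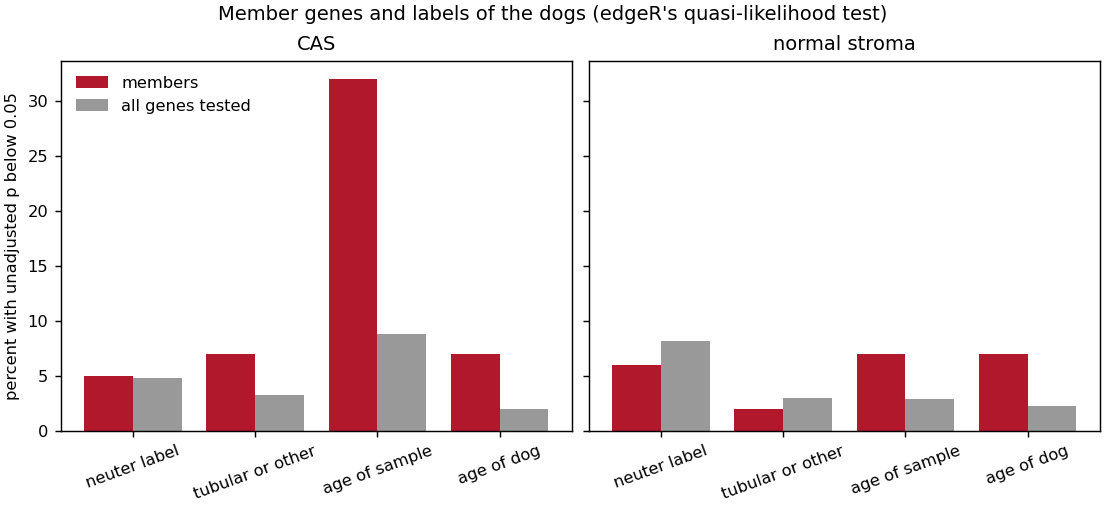
Percent of the 100 members (red) and of all genes tested (grey) with an unadjusted p below 0.05 in edgeR's quasi-likelihood test (y axis), for the neuter label, tubular against other subtypes, age of the fixed sample and age of the dog, in CAS (left) and normal stroma (right). The bar for age of the sample in CAS stands at 32% for the members and 8.77% for all genes. For age of the dog in CAS the bars are at 7% and 2.02%, and for subtype at 7% and 3.28%. For the neuter label in CAS they are at 5% and 4.79%. Each bar of the members in normal stroma is at 7% or below, and no member passed an FDR below 0.05 in any of the 8 tests.

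In normal stroma these labels also gave no member at an FDR below 0.05 with edgeR or DESeq2. Over all genes DESeq2 called 114 by neuter label, 1 by subtype and 1 by age of the dog. The percentages of all genes in this paragraph are those of edgeR. By neuter label 0.489% of all genes passed that threshold and 0 members did, and 6 members had an unadjusted p below 0.05 (8.16% of all genes; DESeq2 8 members). By subtype the values were 0% of genes and 0 members at the FDR, and 2 members at the unadjusted p (2.97% of all genes; DESeq2 2 members). By age of the dog they were 0.00862% of genes and 0 members at the FDR, and 7 members at the unadjusted p (2.30% of all genes; DESeq2 8 members). Whether the difference between CAS and normal stroma itself depended on a label was tested over the 26 libraries of 13 dogs. By neuter label, 0 members and 0% of genes passed an FDR below 0.05, with 2 members at an unadjusted p below 0.05 (6.25% of all genes; DESeq2 0 and 5 members). By subtype, 0 members and 0% passed, with 3 members at the unadjusted p (2.40% of all genes; DESeq2 0 and 6 members).

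Between CAS and normal stroma over all 30 libraries, 2 members were called at a fold change above 2 with an FDR under 0.01, compared to 3.64% of the 10472 genes tested, and 28 members had an unadjusted p below 0.05, compared to 23.8%. Of these 28, 21 were higher in CAS and 7 lower. The fitted fold change was positive for 58 members and negative for 42, compared to 30.4% negative over all genes tested. This fit had no dog term, so it took the 2 libraries of a dog as independent. The selection had held the medians of the stromas within 4-fold, so nothing can be read from these numbers. Both called members were higher in CAS and were named after their values were seen. ENSCAFG00000012718, the seventy-ninth member, had a log2 fold change of 2.60 ± 0.60 in the edgeR fit with 6 surrogate variables (SE, with adjusted p = 0.00506). Its mean log2(CPM + 1) was 7.27 in CAS and 5.93 in the 13 normal stroma libraries, a smaller difference than the fitted one. Its CAS levels were 17.8 to 797 CPM with a median of 159, its normal stroma levels were 10.4 to 135 CPM with a median of 68.0, and CAS was higher in 12 of 13 dogs. ENSCAFG00000011169, the ninety-second member, differed by 1.58 ± 0.37 (adjusted p = 0.00572). Its CAS levels were 10.6 to 181 CPM with a median of 71.9, its normal stroma levels were 6.13 to 45.5 CPM with a median of 19.7, and CAS was higher in 12 of 13 dogs. For both, the ranges of the stromas overlapped.

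The number called in that comparison moved with the fit and with single dogs. It was 8 with the dog as a block (5.54% of all genes), 9 without surrogate variables (5.11%), 10 in DESeq2 (5.68%), 11 without the normal stroma libraries of dogs 128 and 136 (5.39%) and 5 with all genes of at least 1 count (2.48%). It was 0 without dog 132, 138 or 139, 1 without dog 109, 123, 126, 127, 131 or 137, 5 without dog 128 or 130, and 6 without dog 136. The share of all genes is not given for the fits without a dog, so nothing is read from these counts. Of the first 4 members none was called. The log2 fold change was 1.72 ± 0.95 for ENSCAFG00000031922 (adjusted p = 0.275), 1.27 ± 0.91 for ENSCAFG00000014473 (adjusted p = 0.429), 1.82 ± 0.64 for ENSCAFG00000006248 (adjusted p = 0.0741) and -0.69 ± 0.73 for ENSCAFG00000008711 (adjusted p = 0.627). The value for ENSCAFG00000031922 was -0.12 with the dog as a block, so its direction between the stromas is not settled by these libraries. For ENSCAFG00000014473 it was 0.16 with the block and 2.75 without surrogate variables (adjusted p = 0.0402), and between 0.62 without dog 130 and 3.07 without dog 138. ENSCAFG00000006248 passed the threshold without surrogate variables, at 2.24 ± 0.54 (adjusted p = 0.00385).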

How the data were processed

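Stromal RNA of 15 dogs, 1 CAS and 1 normal stroma library each, had been obtained by LCM from FFPE slides and sequenced with a stranded total RNA kit. Reads were assigned to Ensembl CanFam3.1 transcripts by the authors, using kallisto 0.44.0 and its sequence bias correction. The authors summed them per gene with tximport and deposited estimated counts without normalisation. Kallisto divides reads between near-identical genes, so a member with close copies is uncertain. The counts, of which 0 have a fraction, were rounded to whole numbers.

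Members were found by the rule given in the report, with CPM from library totals. The members and lists were chosen with earlier results of these data known. The IDs named were the first 2 members in that order with a higher and the first 2 with a lower mean in CAS.

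Tests used R 4.3.3 and edgeR 4.0.16 (filterByExpr, TMM, quasi-likelihood, Benjamini-Hochberg). Each SE of an edgeR value was worked back from the test, as the size of the log2 value divided by the square root of its F statistic. CAS and normal stroma were compared with 6 surrogate variables from svaseq (sva 3.50.0) and no dog term. Tests of labels had no covariate and used 15 CAS or 13 normal stroma libraries, without the normal stroma of dogs 128 and 136. Both stromas of a dog come from 1 animal, which pairs them: deviations from the group means correlated within dogs with a mean r of 0.129 (0.0144 to 0.302, over 0.1 in 8 of 15 dogs), against -0.00773 between dogs. DESeq2 1.42.0, other filters and scalings, a block for the dog and leaving out each dog were the alternatives. The procedures were run on simulated data. For the tests these had the spread typical of genes of the same abundance, so they give no error rate for genes chosen for a wide spread. Gene names, marker lists, sequences and positions were not used here.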

Additional observations from a re-analysis of the deposited data

Results flagged for a closer look

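The normal stroma libraries of dogs 128 and 136, which entered neither the choice of the members nor the tests within normal stroma, held counts above the limit that a count of 0 allows for 2 of the first 4 members. ENSCAFG00000014473 had 7 counts in the library of dog 128, and ENSCAFG00000006248 had 4 counts in that of dog 136. In totals of 29284 and 32528 counts these correspond to 239 and 123 CPM, each above the highest of the other 13 normal stroma libraries for that gene (63.1 and 77.6 CPM), and each rests on a handful of reads. Of 32 sets of values examined for a single sample far from the others, 0 had one, where about 1.6 are expected by chance at 1 in 20. The 32 sets do not cover the 100 members one by one, and member 7 did owe its place in the set to dog 130 alone.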

How the results depend on the processing

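The set depends on its definition. Of the 100 members, 62 remained when genes over 1% of a library were left out of the totals and 59 after thinning. With the median absolute deviation 32 remained, with CAS limited to the 13 dogs used for normal stroma 73, and with a dog left out 76 to 93. Between CAS and normal stroma, 2 members were called. This became 9 without surrogate variables, 8 with the dog as a replicate block, 10 in DESeq2 and 5 with all genes of at least 1 count. The count was 11 without the normal stroma of dogs 128 and 136 (9 if also without surrogate variables, an alternative added after seeing the data). These fits called 2.48% to 5.68% of all genes. Without single dogs the count was 0 to 6, with no share of all genes given. ENSCAFG00000031922 reversed to -0.12 with the replicate block. ENSCAFG00000006248 passed the threshold at 2.24 without surrogate variables. The 0 members called by sample age and by the difference of slopes became 3 and 1 in DESeq2, which called 39 and 5 of all genes. The cause of these shifts was not tested. Of 156 counts under alternatives, 133 stayed within 1.5 times and 23 moved. Many of the 133 are tests of labels that called 0 members both in the main fit and in the alternative, so they say little about stability. Few counts limit the low dogs: a floor of 3 counts is 2.20 CPM in the CAS of dog 130.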
